A study of Mus musculus with 9 samples.

Results

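Genes of the G2/M transition and mitosis were examined in mouse embryonic fibroblasts, connective-tissue cells grown from embryos. The members were 40 listed gene symbols, and each was read by the brightest of its probe sets on Affymetrix mouse arrays. Of these, 39 had a probe set with that single symbol, and all 39 reached the signal minimum set for testing, a mean of 100 over the 9 arrays. Ccnb1, which encodes cyclin B1, is the exception and was not analysed here. Over the whole array 18193 genes had a probe set with a single symbol and 10177 were tested.

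The fibroblasts were taken at E13.5, had immortalised spontaneously, and were wild type or knockout for Suv420h1, a histone H4 methyltransferase now named Kmt5b. The Suv420h1-/- cells gave 3 arrays: without any transgene, with GFP alone, and with a fusion of Suv420h1 to GFP. In comparisons the first 2 of these arrays form the null line and the third the reconstituted null line, and all 3 together are called the null-line arrays. All wild-type cells carried a transgene delivered by lentivirus, and untransduced wild-type cells were not analysed here. The control vectors were GFP and LacZ (2 arrays), and 1 array had wild-type (full-length) PREX2, which loads the GTPase Rac with GTP. The other 3 wild-type arrays had PREX2 cut short by a stop codon, named K278*, E824* and Q1430* from the shortest to the longest protein. The labels name no separate lines within a genotype, so genotype and the history of an immortalised line cannot be told apart. Each construct was measured on a single array and separate cultures are not named. Groups of 2 or 3 arrays therefore hold different constructs, or in the null line GFP and no transgene. The spread within a group includes differences between constructs and any technical ones, which cannot be told apart. The p-values here speak only of that spread among these 9 arrays, and not of replicates of 1 condition.

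Cells enter mitosis when cyclin A and cyclin B activate the kinase CDK1, helped by CDC25 phosphatases and by the Polo-like and Aurora kinases. The spindle checkpoint then holds CDC20, the activator of the anaphase-promoting complex, until every chromosome is attached to microtubules. Once it is released, separase cuts cohesin and the midzone proteins build the cleavage furrow. Transcripts of these genes rise together late in the cycle of dividing cells, under FOXM1, B-MYB and the MuvB complex, and are repressed in resting cells by the DREAM complex. In bulk RNA, more cells in mitosis and more of a transcript per cell cannot be told apart.

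A pair of promoter elements is known for this gene group, the cell cycle genes homology region TTTGAA (or its variant TTCGAA), read by MuvB complexes, and the CCAAT box read by NF-Y. Promoters are shown because most members followed a shared order of the wild-type-line arrays. Any bearing of the motifs on that order was not tested. RefSeq promoters of build GRCm38.p6 (250 bases before to 50 after a gene's start) were matched to 33 of the 40 members by symbol, in 36 windows. TTTGAA on either strand was found in 28 of 36 member windows (77.8%) and in 17.9% of all 32851 windows. CCAAT on either strand was found in 30 of 36 (83.3%) against 37.4%, and both motifs in 26 of 36 (72.2%) against 6.95%. TTCGAA was found in 4 of 36 windows (11.1%) against 1.56%. The window matters for TTTGAA. In the 250 bases before the start alone it was found in 16 of 36 member windows (44.4%) against 16% of all, while CCAAT was found in the same number, 30 of 36 (83.3% against 33.8%). Matches can share letters and were counted once per window, and a match is a description of letters and not a shown binding site.

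The 8 stretches that follow run from 120 bases before to 20 after the start, 5′ to 3′, in the gene's own direction. Ccnb2, Cenpe, Bub3 and Kif2c are shown because they differed most clearly between the lines, and Cdk1, Cdc20, Ube2c and Ect2 because they followed the shared order of arrays. Cenpe, Bub3 and Kif2c followed that order too. The 8 genes were chosen after their values were seen, and the first of 2 listed windows is shown for Bub3 and Ect2. Capitals mark the motif TTTGAA, which from the other strand appears in the form TTCAAA, and the CCAAT box, which from the other strand appears in the form ATTGG.
Ccnb2, chr9:70421535-70421674, minus strand: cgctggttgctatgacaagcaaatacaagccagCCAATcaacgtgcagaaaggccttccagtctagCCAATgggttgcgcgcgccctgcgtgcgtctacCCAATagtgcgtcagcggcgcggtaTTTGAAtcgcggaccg
Cenpe, chr3:135212443-135212582, plus strand: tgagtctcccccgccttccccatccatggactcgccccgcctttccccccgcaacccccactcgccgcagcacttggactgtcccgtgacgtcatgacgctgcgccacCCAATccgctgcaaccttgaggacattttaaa
Bub3, chr7:131560250-131560389, plus strand: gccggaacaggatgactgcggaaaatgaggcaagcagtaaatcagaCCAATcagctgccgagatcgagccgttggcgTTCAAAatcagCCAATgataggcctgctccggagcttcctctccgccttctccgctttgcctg
Kif2c, chr4:117178753-117178892, minus strand: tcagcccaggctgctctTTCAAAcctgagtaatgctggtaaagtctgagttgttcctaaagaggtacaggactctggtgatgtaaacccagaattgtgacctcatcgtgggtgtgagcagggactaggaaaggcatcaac
Cdk1, chr10:69352893-69353032, minus strand: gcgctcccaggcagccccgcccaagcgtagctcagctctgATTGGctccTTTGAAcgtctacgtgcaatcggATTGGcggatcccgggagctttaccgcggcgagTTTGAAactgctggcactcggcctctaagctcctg
Cdc20, chr4:118437324-118437463, minus strand: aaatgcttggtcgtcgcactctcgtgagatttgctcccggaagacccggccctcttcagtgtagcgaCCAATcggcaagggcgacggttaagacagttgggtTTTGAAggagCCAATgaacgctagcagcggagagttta
Ube2c, chr2:164769809-164769948, plus strand: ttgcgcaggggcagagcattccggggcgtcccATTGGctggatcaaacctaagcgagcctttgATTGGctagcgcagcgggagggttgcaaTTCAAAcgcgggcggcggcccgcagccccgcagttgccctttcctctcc
Ect2, chr3:27153859-27153998, minus strand: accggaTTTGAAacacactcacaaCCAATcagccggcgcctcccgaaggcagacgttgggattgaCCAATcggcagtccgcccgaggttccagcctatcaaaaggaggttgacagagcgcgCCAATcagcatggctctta
Ccnb2 holds 3 CCAAT boxes in this stretch and a TTTGAA just after its start, and Cdk1 holds 2 TTTGAA, each after an ATTGG. Cenpe has a single CCAAT box and no TTTGAA in it, and the window listed for Kif2c, which lies at a start inside the gene as annotated, has a TTCAAA and no CCAAT box. No match says only that these letters are not in this window.

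The signals are MAS5 intensities on a linear scale. Differences between groups were computed on log2(signal + 25), with adjusted p below 0.05 in limma taken as the threshold. The trimmed mean of every array was 500, and array medians lay between 56.3 and 68.7. Fibroblast genes were high, with Vim between 31334 and 38886. Thy1, a fibroblast surface marker, differed by -5.47 on the log2 scale in the null line against control vector (adjusted p = 0.000409). Of defining markers of other cell types, Ptprc did not exceed 25.9, Pecam1 32.7, Myog 29.8 or Adipoq 27.5 on any array, but others were detected. The adipocyte and macrophage gene Fabp4 read 94.8, 105 and 264 on the null-line arrays and 277 to 391 on the others, the endothelial gene Tek 51.7, 91.3 and 43.4 and 55 to 488, the macrophage gene Csf1r 198, 206 and 204 and 294 to 544, and the epithelial gene Epcam 255, 432 and 297 and 162 to 301 (untransduced, GFP and Suv420h1-GFP in that order). Fabp4, Tek and Csf1r fell between the lines (-1.17, -1.78 and -1.04 on the log2 scale) and Epcam did not pass. Of the tested genes of each list, 1 of 1 adipocyte, 1 of 1 endothelial, 1 of 2 macrophage, 1 of 2 muscle (Acta1), 2 of 3 neural and 0 of 1 epithelial genes fell. Of 12 fibroblast genes 4 fell and 0 rose, and all 12 differences were below 0. Over the whole array 21.3% of probe sets tested fell between the lines. The brightest Kmt5b probe set read 442 and 432 in the null line, 328 on the array labelled Suv420h1-GFP and 295 to 469.6 on the wild-type-line arrays, so it did not separate the genotypes, was lower on the array labelled as reconstituted than on the other null-line arrays, and where it lies relative to the deletion is not stated in these sources. Prex2 read 703 to 809 on the 4 PREX2 arrays, 677 with LacZ, 452 with GFP and at most 323 on the null-line arrays. Against control vector its log2 difference was 0.41 for truncated and 0.50 for full-length PREX2, and neither passed. The PREX2 labels could therefore not be checked with it. Summed signals of other-cell markers also differed between arrays, from 209 to 2180 for 4 neural genes and from 118 to 603 for 4 endothelial genes, with Tubb3 and Map2 lower in the null line, and the part of all these genes in the results was not tested.

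Within the 6 wild-type-line arrays most mitosis genes shared an order. The mean log2 level of the 39 members was highest with GFP in that line (11.25) and with K278* (11.12). It was lowest on the E824* array (10.37) and the Q1430* array (10.59), with LacZ at 10.70 and full-length PREX2 at 10.77. The 3 null-line arrays lay between 10.73 and 10.93. The order was looked for after the values were seen, and the arrays of a pair are single, so no test is given for it.

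**Figure D1:**
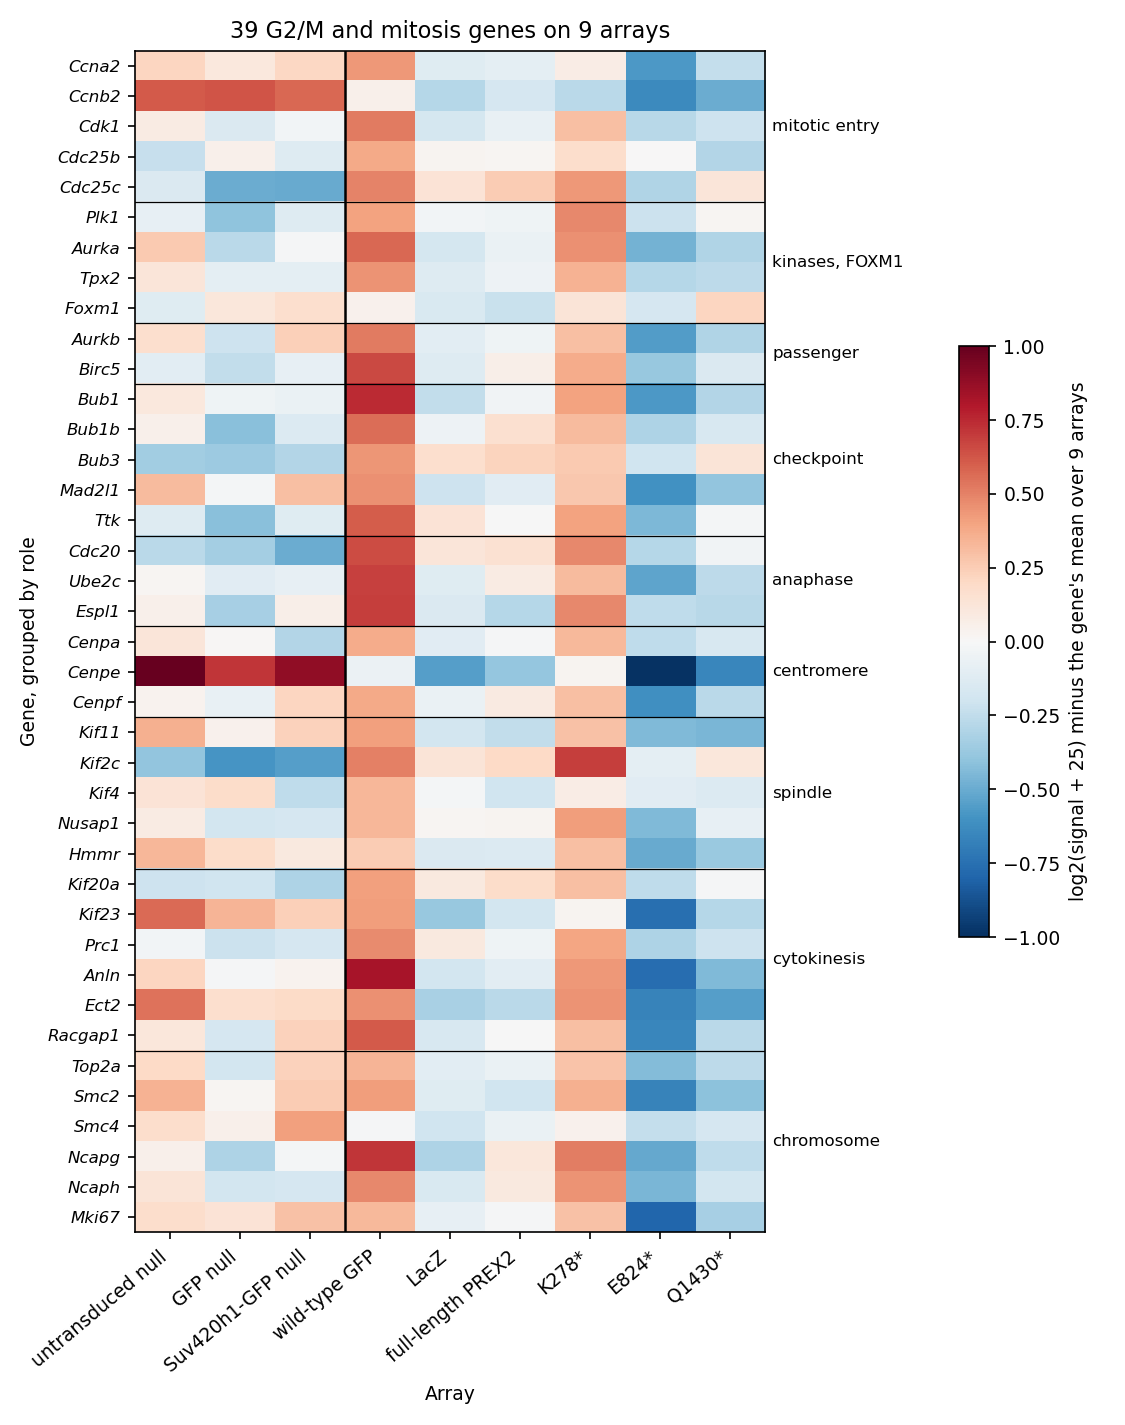
Heat map of log2(signal + 25) minus each gene's mean over the 9 arrays, for 39 genes in rows grouped by role and the 9 arrays in columns (red higher, blue lower, scale -1 to 1, values beyond it at the end colour). The wild-type GFP and K278* columns are red for nearly every gene and the E824* column blue, while Ccnb2 and Cenpe are red on the 3 null-line arrays and Kif2c blue.

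The GFP and K278* arrays were both above the other 4 wild-type-line arrays at 37 of 39 members, which holds for 22.2% of all probe sets tested. The 2 exceptions were Ccnb2 and Foxm1. GFP was the highest of the 6 wild-type-line arrays at 32 members (29.3% of all probe sets) and of all 9 arrays at 29 (19.6%). E824* was the lowest of the 6 at 34 members (21.5%) and of the 9 at 26 (14.5%). K278* lay above both longer truncations at 38 members (41.3%), all but Foxm1, and E824* lay below LacZ at 39 of 39 (50.6%).

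Anln, the scaffold protein anillin of the cleavage furrow, had the widest range of all members within the wild-type line. It read 10723 on the GFP array and 5331 on the LacZ array, 5638 with full-length PREX2, and 8174, 3568 and 4456 with K278*, E824* and Q1430*. The null-line arrays read 7040.2 untransduced, 6005 with GFP and 6193 with Suv420h1-GFP. The highest array was thus 2.99-fold above the lowest on the log2(signal + 25) scale, and both lay within the wild-type line.

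Cdk1, the kinase that drives entry into mitosis, read 9149 with GFP, 5644 with LacZ, 6062 with full-length PREX2, and 7867, 5275 and 5539.9 with the truncations. Its null-line values were 6755, 5785 and 6269 (untransduced, GFP and Suv420h1-GFP, the order used for null-line values from here on). They fell inside the wild-type range. Birc5, which encodes survivin of the chromosomal passenger complex, read 6807 with GFP, 3926 with LacZ, 4490.5 with full-length PREX2, and 5571, 3304 and 3882 with K278*, E824* and Q1430*. Its null-line values were 3986, 3629 and 4051, again inside the wild-type range. Tpx2, which activates Aurora A on the spindle, read 1996, 1329 and 1398 with GFP, LacZ and full-length PREX2, then 1857, 1185 and 1205 with the truncations, and 1585, 1356 and 1359 in the null-line arrays.

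**Figure D2:**
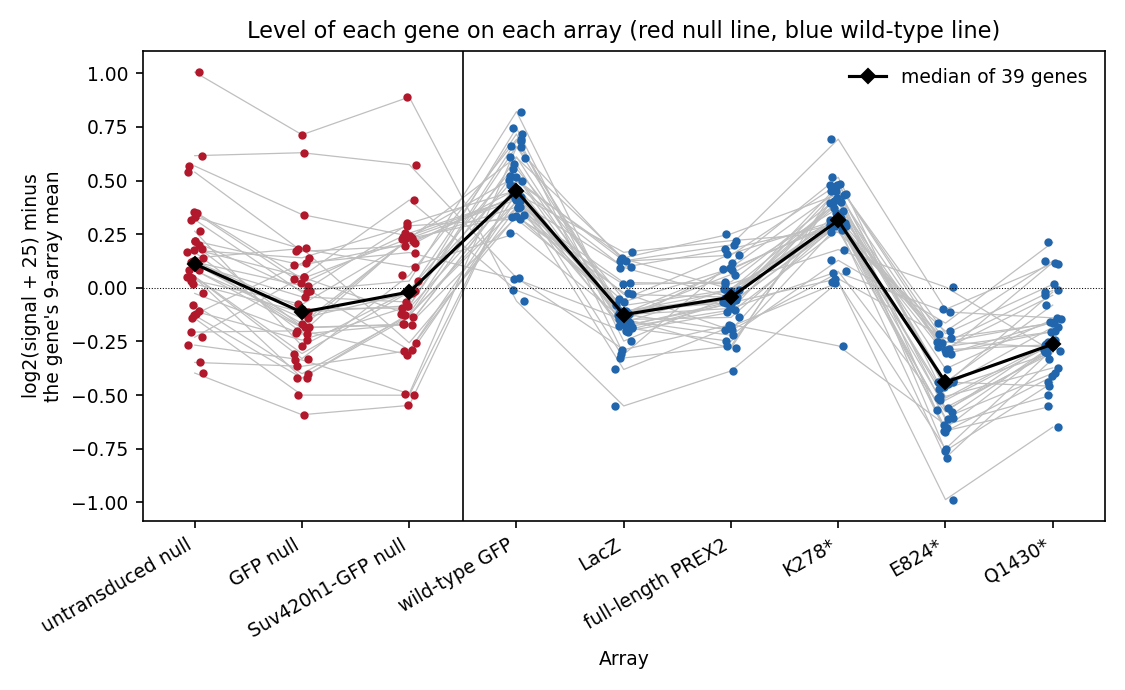
Log2(signal + 25) minus each gene's mean over the 9 arrays, per array, for 39 genes (points, red null line, blue wild-type line), with their median (diamonds). The grey lines join the values of 1 gene and the arrays have no order; the median is highest on the wild-type GFP array and lowest on the E824* array.

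Foxm1, a transcription factor for mitotic genes, did not follow the order at its brightest probe set. That probe set was dim, at 178 with GFP, 153 with LacZ, 145 with full-length PREX2, 191, 152 and 204 with the truncations, and 157, 189 and 197 in the null-line arrays. Its highest wild-type value was on the Q1430* array. The second tested Foxm1 probe set had GFP highest (112) and E824* lowest (61.8) in that line, with K278* (105) just below LacZ (107). Another, below the signal minimum, followed the order, at 102 with GFP, 94.9 with K278* and 14.8 to 79.1 on the rest of that line. The Foxm1 probe sets thus disagree. Ccnb2, which encodes cyclin B2, had GFP as its highest wild-type array (1841) but K278* (1473) below full-length PREX2 (1579).

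The size of the order was read from 2 pairs of arrays. Each pair sets an array that was high in the order against a lower one. Its direction thus mostly follows from the order and is no separate support for it. GFP was above LacZ at 39 of 39 members, by a median of 0.53 on the log2 scale (1.44-fold), against -0.03 over all genes. Members ran from 0.19 for Smc4, a core condensin subunit, to 1.03 for Ncapg, another condensin subunit. At 16 members GFP exceeded LacZ by more than 1.5-fold, against 8.53% of all probe sets, and at 0 was it lower by as much (13.7%). K278* was above E824* at 39 of 39, by a median of 0.77 (1.70-fold), against -0.03 over all genes. Members ran from 0.17 for Cdc25b, a CDK-activating phosphatase, to 1.19 for Anln. Here 30 members passed 1.5-fold upward (7.64%) and 0 downward (7.74%). The GFP and LacZ arrays are both controls, so this difference lies within the control group.

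**Figure D3:**
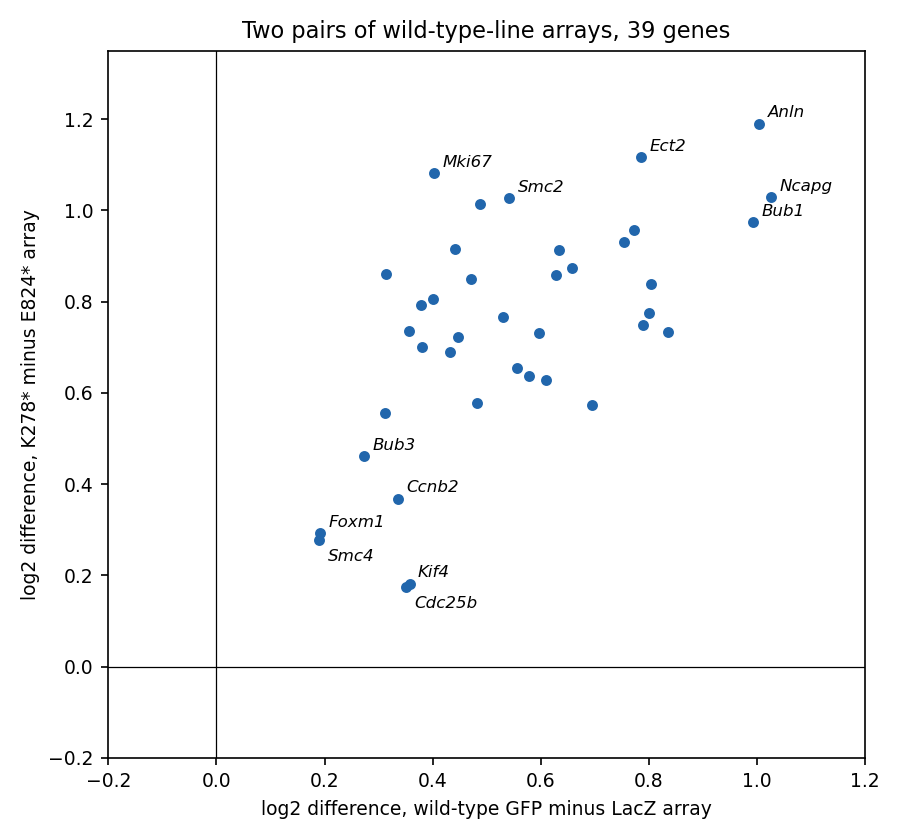
Difference in log2(signal + 25) between the wild-type GFP and LacZ arrays (x axis) and between the K278* and E824* arrays (y axis) for 39 genes, 1 point per gene. All points lie above 0 on both axes, with Anln and Ncapg at the upper right and Smc4, Foxm1, Kif4 and Cdc25b nearest 0 on the y axis.

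Other pairs were read in the same way. Over all genes the median of those within the wild-type line ran from -0.02 to 0.003. K278* exceeded Q1430* by more than 1.5-fold at 16 members (4.75% of all probe sets) with a median of 0.57, and full-length PREX2 at 2 members (3.55%) with a median of 0.35. At 0 members was K278* lower by as much (5.98% and 2.65%). Q1430* over E824* had a median of 0.24, LacZ over Q1430* 0.12 and full-length PREX2 over LacZ 0.07, with 0 members past 1.5-fold in either direction in each (1.02% to 2.68% of all probe sets; 1.46% and 1.06% for Q1430* over E824*). In the null line the GFP array was below the untransduced one at all but 5 members. The median difference was -0.22 on the log2 scale, against 0.005 over all genes. Aurka, the Aurora A kinase, had the largest difference (1529 untransduced and 1048 with GFP). At 0 members did GFP differ from untransduced by 1.5-fold, where 1.69% of all probe sets were above and 1.68% below, and 0 did between Suv420h1-GFP and untransduced (3.17% and 2.92%) or GFP (3.19% and 3.31%).

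By role, the median of GFP over LacZ ran from 0.36 for the 5 entry genes to 0.80 for the 3 anaphase genes, and that of K278* over E824* from 0.57 for the entry genes to 0.97 for the 6 chromosome-structure genes. The 6 midzone and cytokinesis genes had medians of 0.78 and 0.87. Ect2, the exchange factor that activates RhoA at the furrow, read 2670.0 with GFP, 1538 with LacZ, 1599.8 with full-length PREX2 and 2654, 1210.0 and 1313 with the truncations, against 2824, 2181 and 2218 in the null-line arrays. Of the chromosome genes, Mki67, the proliferation marker Ki-67, read 3240.4, 2445 and 2573 with GFP, LacZ and full-length PREX2, then 3171, 1485 and 2054. Of the entry genes, Ccna2, encoding cyclin A2, read 3602 with GFP, 2441 with LacZ, 2811 with K278* and 1776 with E824*.

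The order was shared by other cell-cycle genes. GFP and K278* were both above the other 4 wild-type-line arrays at 55 of 60 other mitosis genes and at 32 of 32 genes of G1/S and DNA replication. For the replication genes the median difference was 0.73 for GFP over LacZ and 0.87 for K278* over E824*. The order held at 6 of 17 genes of the anaphase-promoting complex and its inhibitors, with medians of -0.00058 and -0.06 for the same pairs. It held at 4 of 12 cohesin genes (medians 0.09 and 0.12) and 5 of 10 genes of the DREAM and MuvB complexes (0.33 and 0.45). Among CDK inhibitor and p53 pathway genes it held at 4 of 10 (0.03 and 0.11). Over all probe sets tested the share was 22.2%, and the differences from it were not tested. Cdkn1a, which encodes the CDK inhibitor p21, read 5336 on the GFP array and 5292 on K278*, and 2883 to 3454 on the other 4. The mean log2 level of 12 fibroblast genes was lower on the same arrays, at 12.24 with GFP and 12.78 with K278*, where the remaining 4 of that line ranged from 13.10 to 13.35, and 11.98 to 12.18 on the null-line arrays. The part of these differences in the mitosis values was not tested.

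The null line was compared with control vector to ask what differs without Suv420h1. Of 39 members 2 rose (10.7% of all probe sets tested rose), 1 fell (8.94% fell, 19.7% in either direction) and 36 did not pass. Both shares of members lie below those of all probe sets, a difference that was not tested. Among all members 13 differences were above 0 and 26 below, with 6 (15.4%) at an unadjusted p below 0.05 against 34.7% of all genes, and the median was -0.20 against -0.03 over all genes. This median was 0.14 without the wild-type GFP array, so its direction rests on that array.

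Cenpe, the kinesin that links kinetochores to microtubules, read 2108 and 1717 in the null line against 993 and 701 with GFP and LacZ. Both null values were above both controls, a log2 difference of 1.17 (SE 0.33, adjusted p = 0.0457). The second-brightest Cenpe probe set gave 0.55 and did not pass. Ccnb2 read 2744 and 2770.0 against 1841 and 1454, a log2 difference of 0.74 (SE 0.17, adjusted p = 0.0233). Bub3, a spindle checkpoint protein that carries BUB1 to kinetochores, was lower without overlap, at 3392 and 3350.0 against 5871 and 4852, with -0.66 (SE 0.17, adjusted p = 0.0366). Leaving out 1 array ended these calls. Cenpe did not pass without the untransduced (1.02), GFP null (1.31) or LacZ (0.92) array, Ccnb2 without the same arrays (0.75, 0.74 and 0.58), and Bub3 without the untransduced (-0.67), GFP null (-0.65) or wild-type GFP (-0.52) array.

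Groups did not overlap at 3 members that were higher (30.7% of probe sets tested) and 8 that were lower (29.9%), of which Cenpe, Ccnb2 and Bub3 passed. Kif2c, a kinesin that takes microtubules apart at their ends, read 1734 and 1512 against 3261 and 2502, a log2 difference of -0.81 (SE 0.26, adjusted p = 0.07). For Cdc20 the values were 8625 and 8221 against 16364 and 11318, with -0.69 (SE 0.26, adjusted p = 0.107). Ttk, which encodes the checkpoint kinase MPS1, read 654 and 529.6 against 1105 and 790.1, and Cdc25c, a phosphatase that activates CDK1, 575 and 443 against 909 and 705 (adjusted p = 0.164 and 0.134). The remaining ones were Kif20a, Plk1 and Prc1, lower, and Smc4, higher.

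All 3 null-line arrays were next set against all 6 wild-type-line arrays. This comparison uses the arrays of the last and so is not independent of it, and it mixes constructs within each line. Of 39 members 4 rose (22.1% of all probe sets tested rose), 5 fell (21.3% fell, 43.4% in either direction) and 30 did not pass. In this fit these shares again lie below those of all probe sets, and that difference was not tested. The median was -0.01 against -0.02 over all genes, with 19 differences above 0 and 20 below and 9 (23.1%) at an unadjusted p below 0.05 against 51.8% of all genes. Between the lines, then, single mitosis genes differed in both directions while the median of the group lay near 0.

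**Figure D4:**
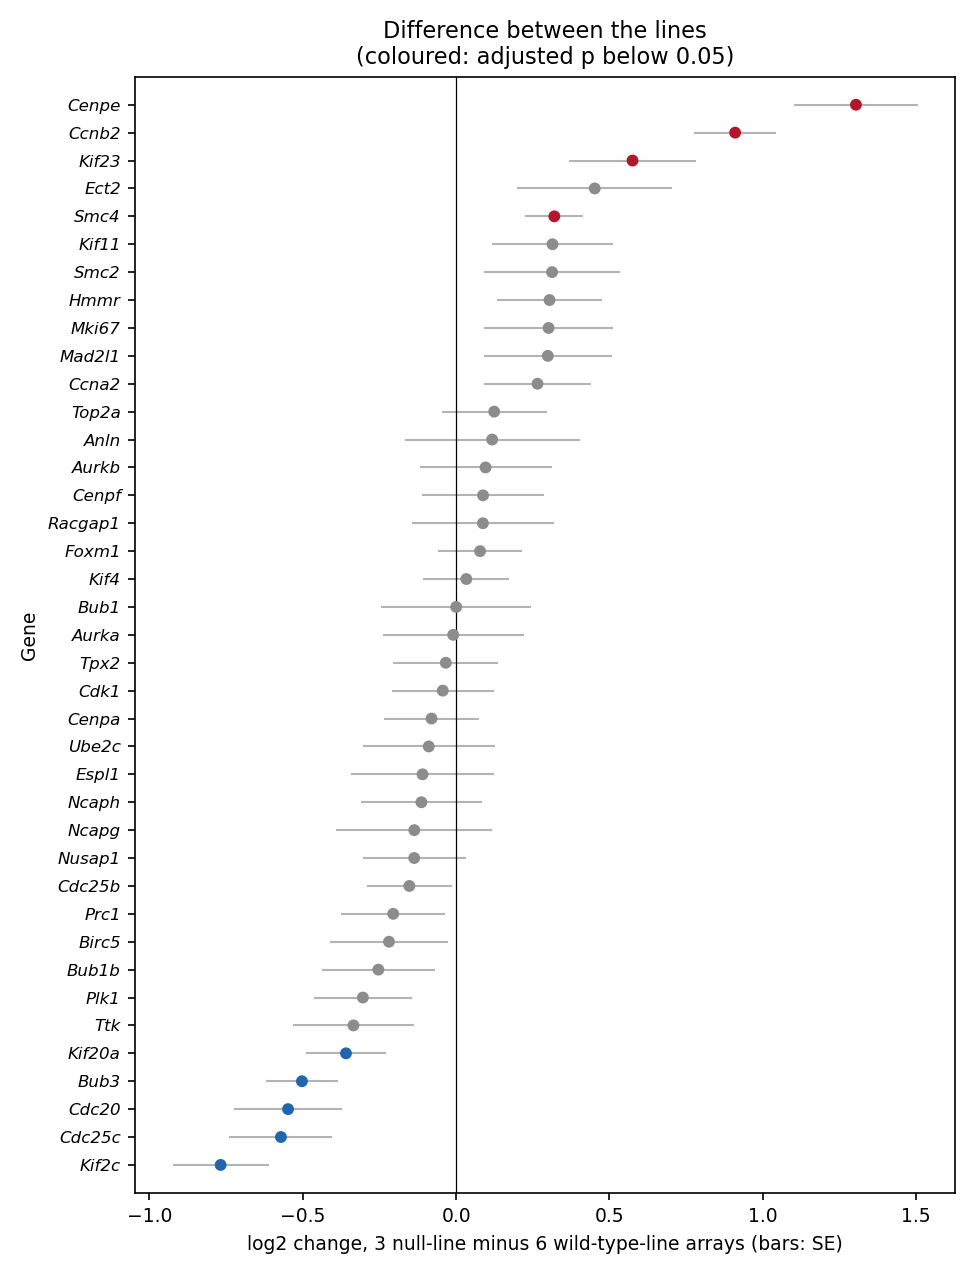
Log2 difference, 3 null-line arrays minus 6 wild-type-line arrays, for 39 genes (points) with its standard error (bars), with genes of adjusted p below 0.05 in red (higher) and blue (lower). Cenpe (1.30) and Ccnb2 (0.91) stand at the top and Kif2c (-0.77) at the bottom, and 30 grey genes lie between -0.33 and 0.45.

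Among entry genes, Ccnb2 rose. It read 2744, 2770.0 and 2665 on the null-line arrays and between 1136 and 1841 (median 1464) in the wild-type line, a 1.88-fold difference without overlap (log2 0.91, SE 0.13, adjusted p = 0.000319). The null-line values lay within a narrow range, including the array with Suv420h1-GFP. Cdc25c fell, reading 575, 443 and 443 against a range of 514 to 909 with a median of 734, with -0.57 (SE 0.17, adjusted p = 0.0181), and the lines overlapped at E824*. Without the GFP null or the Suv420h1-GFP array it did not pass (-0.51 in both cases). Ccna2, Cdk1 and Cdc25b did not pass (0.27, -0.04 and -0.15).

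Among centromere and kinetochore genes, Cenpe rose by the most of all members. It read 2108, 1717 and 1943 on the null-line arrays and between 511 and 1058 (median 744) in the wild-type line, 2.47-fold higher without overlap (log2 1.30, SE 0.20, adjusted p = 0.000433). Its highest wild-type values were on the K278* and GFP arrays. The second-brightest Cenpe probe set gave a smaller difference that passed, 0.73 (SE 0.19, adjusted p = 0.0103). Cenpa, the histone variant that marks centromeres, read 3563, 3298 and 2675 against a range of 2747 to 4248 with a median of 3139 and did not pass, a log2 difference of -0.08 with adjusted p = 0.704, nor did Cenpf, a kinetochore and nuclear matrix protein (0.09).

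Of the 5 checkpoint genes, Bub3 fell. It read 3392, 3350.0 and 3525 against a range of 3754 to 5871 with a median of 4945, without overlap, with -0.50 (SE 0.12, adjusted p = 0.0055). The E824* array was the nearest wild-type value. Bub1, Bub1b, Mad2l1 and Ttk had differences of 0.00, -0.25, 0.30 and -0.33 and did not pass. For Bub1, the checkpoint kinase, the dimmer of its probe sets (mean signal 203) gave 0.79 (SE 0.16) and passed, where the brightest (mean 2004) gave 0.00, so its probe sets disagree. Dimmer probe sets also passed as higher for Cenpf (0.55, adjusted p = 0.0302), Hmmr (0.65, adjusted p = 0.0413) and Smc2 (0.60, adjusted p = 0.0489), whose brightest ones did not pass.

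In the anaphase group, Cdc20 fell. It read 8625, 8221 and 7368 against a range of 8529 to 16364 with a median of 11429, with -0.55 (SE 0.18, adjusted p = 0.0263). E824* lay inside the null-line range, and Cdc20 did not pass without the untransduced (-0.60), GFP null (-0.56) or Suv420h1-GFP (-0.48) array. Ube2c, the E2 enzyme of the anaphase-promoting complex, read 4832, 4407 and 4502 against a range of 3311 to 7682 with a median of 4727 and did not pass (-0.09), nor did Espl1, which encodes separase (-0.11).

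Of the spindle genes, Kif2c fell. It read 1734, 1512 and 1559 against a range of 2135 to 3719 with a median of 2569, without overlap, with -0.77 (SE 0.16, adjusted p = 0.00247). Its second-brightest probe set gave -0.82. Kif11, the kinesin that separates spindle poles, Kif4, Nusap1 and Hmmr did not pass, at 0.31, 0.03, -0.14 and 0.30.

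Of the 6 midzone genes 1 rose, 1 fell and 4 did not pass. Kif23, a subunit of the centralspindlin complex, rose, reading 1959, 1671 and 1557 against a range of 771 to 1767 with a median of 1115, with 0.58 (SE 0.21, adjusted p = 0.0447). Kif20a, a midzone kinesin, fell, reading 2640.1, 2651 and 2451 against a range of 2549 to 4054 with a median of 3362, with -0.36 (SE 0.13, adjusted p = 0.0448). Both overlapped between lines and lay just inside the threshold. Kif23 lost its call without any 1 array other than the wild-type GFP and K278* arrays (0.46 to 0.65), and Kif20a without any 1 null-line array or without LacZ, full-length PREX2 or K278* (-0.38 to -0.32). Prc1, Anln, Ect2 and Racgap1, the last the partner of Kif23 in centralspindlin, had differences of -0.21, 0.12, 0.45 and 0.09 and did not pass.

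Among chromosome-structure genes, Smc4 rose. It read 6223, 5697 and 7302 against a range of 4664 to 5659 with a median of 5066, without overlap, with 0.32 (SE 0.094, adjusted p = 0.0183), and it did not pass without the Suv420h1-GFP array (0.22). Its other tested probe sets gave 0.29 and 0.32 without passing. Smc2, its partner in condensin, read 3271, 2597 and 3059 against a range of 1599.6 to 3432 with a median of 2289 and did not pass (0.31). Top2a, a DNA topoisomerase, Ncapg, Ncaph and Mki67 had 0.12, -0.14, -0.11 and 0.30. Of the mitotic kinases and their regulators (Plk1, Aurka, Tpx2, Foxm1) and the passenger genes (Aurkb, Birc5), 0 of 6 passed, with differences from -0.30 for Plk1 to 0.10 for Aurkb.

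**Figure D5:**
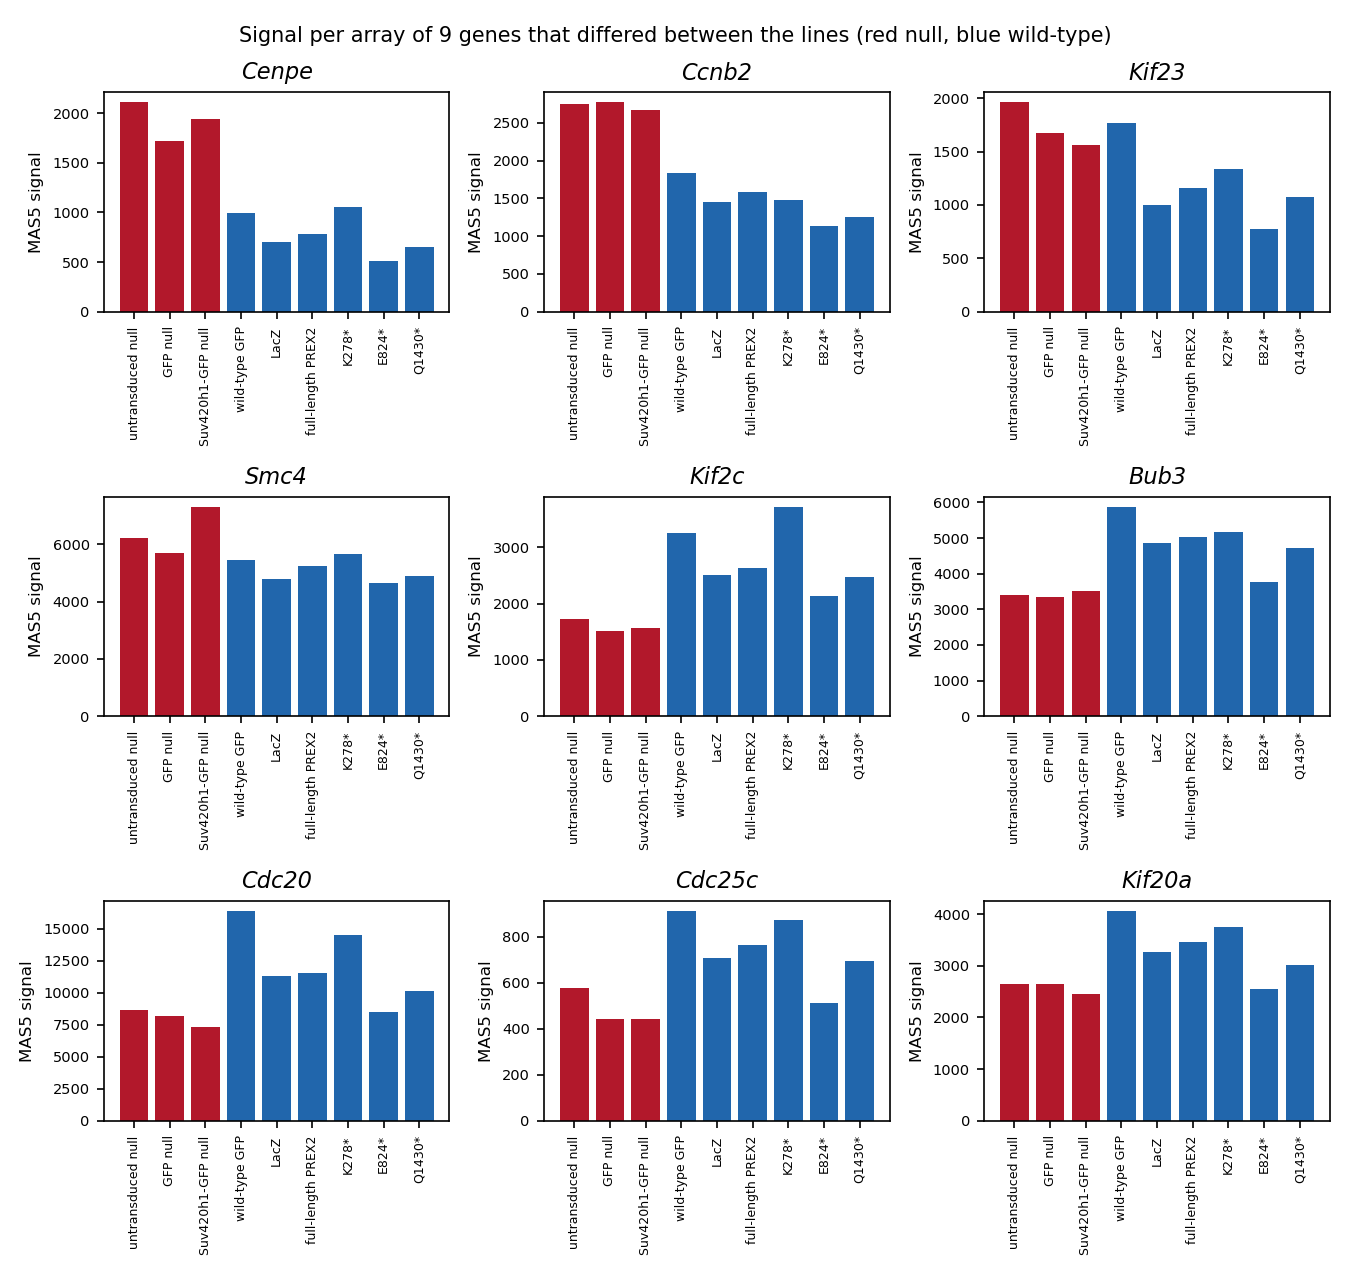
MAS5 signal (linear scale from 0) per array of the 9 genes that passed between the lines, with 3 null-line arrays in red and 6 wild-type-line arrays in blue, 1 bar per array. Cenpe, Ccnb2 and Smc4 are higher on every red array than on any blue one, Kif2c and Bub3 lower, and Kif23, Cdc20, Cdc25c and Kif20a overlap.

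Groups did not overlap at 3 members that were higher (21.4% of all probe sets) and 2 that were lower (19.1%). Cenpe, Ccnb2, Bub3 and Kif2c passed in every alternative run for this comparison. Ccnb2 has a single probe set, so the run with second-brightest probe sets used the same one and was no check of it. Without the wild-type GFP array 7 members rose in place of 4 (25.6% of all probe sets then rose), and without the Suv420h1-GFP array 2 rose (17.7%). In place of 5, 3 members fell without the untransduced null array (16.4% of all probe sets), 2 with the GFP null array left out (16.5%) and 2 with Suv420h1-GFP left out (17.3%).

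The spread shared by the cell-cycle genes was also handled in 2 ways chosen after the data were seen. With the mean of the 60 other mitosis genes as a covariate, 10 members rose and 14 fell, against a background that was itself larger, 28.1% and 27.5% of probe sets. Without the wild-type GFP and K278* arrays, 14 rose and 4 fell, against 28% and 27.7%, and the median of the members was 0.16. The share of members that fell with the covariate was above that of all probe sets. The covariate genes mostly shared the order of the members, so members are read there relative to related genes. The share that rose without both arrays was also above that of all probe sets. The arrays left out were those on which most members read highest in the wild-type line. An upward shift of the members thus follows in part from that choice. The share that rose with the covariate and the share that fell without both arrays lay below. These differences were not tested. Cenpe, Ccnb2, Bub3 and Kif2c kept their direction in both settings.

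The array labelled Suv420h1-GFP was set against the null line to ask whether adding the enzyme back changes these genes. The brightest Kmt5b probe set was not higher on this array, at 328 against 442 and 432, a log2 difference of -0.39 that did not pass. It did not separate the genotypes either, and whether it reads the fusion is not stated in these sources. The label could therefore not be checked with it. Of 39 members 0 passed in limma in either direction (0% of all probe sets passed), and 20 differences were above 0 and 19 below. At an unadjusted p below 0.05 there were 0, where the share of all genes was 3.31%. The median was 0.004 against 0.02 over all genes. The array labelled Suv420h1-GFP lay between or at the null-line values for 19 members (28.1% of all probe sets), above them for 11 (38.9%) and below for 9 (33%). Kif4, a chromosome-binding kinesin, read 506 against 673 and 695 (-0.42, SE 0.21), Cenpa 2675 against 3563 and 3298 (-0.35), and Smc4 7302 against 6223 and 5697 (0.29). Of the members that differed between the lines, Cenpe, Ccnb2, Bub3 and Kif2c had differences on this array of 0.03, -0.05, 0.06 and -0.05. The single array labelled Suv420h1-GFP was assumed to vary like the other groups.

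Truncated PREX2 (3 arrays) was compared with control vector (2 arrays). Of 39 members 0 passed in limma (0.00524% of all probe sets rose and 0% fell), with 0 at an unadjusted p below 0.05 (2.73% of all genes). All but 1 of the differences were below 0 (38 of 39, against 4946 of 10177 over all genes). The median was -0.30 against 0.01 over all genes, and the lowest difference was Anln at -0.58 (SE 0.39, adjusted p = 0.844). The exception was Foxm1 at 0.11, whose second tested probe set gave -0.39. Adjusted p lay between 0.844 and 0.982. At 0 of 39 members were the groups apart (7.32% of probe sets higher and 6.49% lower), since each group held a high array, GFP or K278*, and lower ones.

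The median depended on which arrays were kept. It was -0.04 without the GFP control and -0.58 without LacZ, and it was -0.53 without K278* and -0.14 without E824*. At 0 members did leaving out an array give a call.

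Full-length PREX2 (1 array) against control vector gave 0 of 39 members past the threshold in limma (0% of all probe sets). At an unadjusted p below 0.05 there were 0, where the share of all genes was 1.12%. Here 38 of 39 differences were below 0, with Smc4 above at 0.04, and the median was -0.20. Over all genes 4891 of 10177 were below 0, with a median of 0.01. The median of the members turned to 0.07 without the GFP control and was -0.51 without LacZ. The array lay above both controls at 0 members (23.7% of all probe sets) and below both at 9 (24.3%), among them Espl1 (484 against 975 and 535), Ttk (714 against 1105 and 790.1), Kif11 (939.6 against 1499 and 983) and Kif4 (528 against 774 and 599).

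Truncated against full-length PREX2 gave 0 of 39 members past the threshold in limma (0% of all probe sets). At an unadjusted p below 0.05 there were 0, where the share of all genes was 1.03%. There were 9 differences above 0 and 30 below, with a median of -0.10. Over all genes 5007 were above 0 and 5170 below, with a median of -0.0025. Foxm1, Espl1 and Kif4 were higher on all 3 truncation arrays than on the full-length array (19.9% of all probe sets) and Ccnb2 was lower on all 3 (17%), at 1473, 1136 and 1253 against 1579. The median of the members was -0.32 without K278* and 0.08 without E824*, so its direction rests on these arrays. The 2 PREX2 comparisons with control vector share the control arrays and are not independent.

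Lists of related genes were counted between the lines in the same fit, in which 22.1% of all probe sets rose and 21.3% fell. Of 60 other mitosis genes 10 rose and 8 fell, with Oip5 and Spc24 lower and Ckap2 and Spc25 higher by the most, and both are smaller shares than those of all probe sets. Spc24 and Spc25, partners in the NDC80 kinetochore complex, went opposite ways. Spc24 read 1174, 989.9 and 1132 against a range of 1877 to 2371 with a median of 2089.9, a log2 difference of -0.93 with adjusted p = 4.84e-05, and Spc25 read 3474, 3075 and 3161 against a range of 1338 to 2469.6 with a median of 1705, a log2 difference of 0.88 with adjusted p = 0.00154. Both were without overlap. Oip5, which helps load CENPA, read 175, 103 and 130.1 against a range of 255 to 449.8 with a median of 306, a log2 difference of -1.12 with adjusted p = 0.000602, and Ckap2, a microtubule-binding protein, 5357, 4963 and 4923 against a range of 1968 to 3988 with a median of 2559, a log2 difference of 0.91 with adjusted p = 0.00338.

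Of 17 genes of the anaphase-promoting complex and its inhibitors, 3 rose and 5 fell, led by Anapc16 (-0.61), Anapc13 (-0.50), Anapc7 (-0.45) and Anapc10 (0.42). Of 12 cohesin genes 3 rose and 2 fell, where Wapl, which releases cohesin from DNA, read 1493, 1441 and 1727 against a range of 945 to 1042 with a median of 1017, a log2 difference of 0.62 with adjusted p = 0.000215. Tfdp1, the partner of E2F factors, was the only riser among 10 DREAM and MuvB genes, 0 of which fell, at 5475, 4735 and 5106 against a range of 2216 to 4512 with a median of 2732, a log2 difference of 0.80 with adjusted p = 0.00801. Of 32 genes of G1/S and replication 2 rose and 2 fell.

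Of 10 tested genes of CDK inhibitors and the p53 pathway, 4 rose and 3 fell. Cdkn2a, which encodes the p16 and ARF tumour suppressors, read 3363, 4308 and 3846 in the null line and 0.925 to 15.9 in the wild-type line. Cdkn2b rose too (5.67), as did Mdm2 (1.25), and Cdkn2c fell (-1.13). Cdkn1a read 5019, 5131 and 4692 against a range of 2883 to 5336 with a median of 3316 and did not pass. The part of Cdkn2a in the levels of the mitosis genes was not tested.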

How the data were processed

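Per the labels' protocols, biotinylated cRNA was made from total RNA of 9 samples by 3′ in vitro transcription and put on Affymetrix arrays. The authors deposited probe-set intensity on a linear scale. The submitters' processing notes name MAS5, and no version of it is stated. Of the probe sets, 64 controls were left out and 45037 remained. The number of arrays limits the precision.

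Here, log2(signal + 25) was taken, a scale that understates changes of dim probe sets, and the 19090 probe sets with a mean of at least 100 were fitted in limma 3.58.1 (R 4.3.3) with an intensity trend. A fit with 5 group means (4 residual degrees of freedom) gave 5 comparisons, and a fit with 2 lines (7) gave the comparison between lines. P-values are two-sided and adjusted by the Benjamini-Hochberg method over all probe sets. A group with 1 array borrows its spread from the rest. Percentages over all probe sets count probe sets, and members are counted as genes by their brightest probe set.

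Full values are given for members that passed, for the brightest member of each role, and for up to 4 per comparison with the largest differences without overlap. Genes of other lists are named where they passed, up to 4 a list, with Cdkn1a, Cdkn2a, Kmt5b and Prex2 in any case. The members and lists were chosen with earlier results of these data known. The array orders, the array pairs and their 1.5-fold limit, the promoter motifs, the examples of the shared order, and 2 alternatives (leaving out the wild-type GFP and K278* arrays, and the mean of other mitosis genes as a covariate) were chosen after seeing the data. Other alternatives were quantile normalization, offsets of 5 and 100, a signal minimum of 200 or none, no trend, only the groups compared, the second-brightest probe set, and each array left out. Only 23 members had another tested probe set, and the remaining ones kept their brightest in the run with second probe sets. The fits were tested on simulated data. Of 2-fold changes, 36% were recovered for the null line and 48% for truncated PREX2, each against control vector, and 75% between the lines. Of 4-fold changes, 79%, 84% and 97% were recovered, with 3, 5 and 12 false calls.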

Additional observations from a re-analysis of the deposited data

How the results depend on the processing

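No paired analysis was possible because the labels give no replicate numbers shared between groups. Against control vector, the main counts for the null line were 2 members higher and 1 lower. Members higher numbered 1 with no filter, with no trend, with only the groups compared and with second probe sets, 6 with the covariate of other mitosis genes, and 6 without the wild-type GFP and K278* arrays. Members lower numbered 0 in the first 4 of these settings, 9 with the covariate and 3 without both arrays. With second probe sets, members that have no other tested one kept their brightest. Leaving out 1 array gave 0 to 2 higher and 0 to 2 lower, while 2.99% to 13.4% of all probe sets rose and 2.31% to 10.2% fell. Between the lines (4 higher and 5 lower), 10 rose and 14 fell with the covariate, and 14 rose and 4 fell without both arrays. Leaving out 1 array gave 2 to 7 higher and 2 to 6 lower, while 17.4% to 25.6% of all probe sets rose and 16.4% to 24.9% fell. The last settings test different models or fewer arrays, and their backgrounds also rose, to 18.2% to 19.6% against control vector and 27.5% to 28.1% between the lines in each direction. No comparison of PREX2 or of reconstitution gave a call among the members in any setting run (limma). In the main setting of these comparisons 0 had an unadjusted p below 0.05, against 1.03% to 3.31% of all genes. The median of the members turned from -0.20 to 0.14 against control vector without the wild-type GFP array, and from -0.01 to 0.16 between the lines without both arrays. In the comparison with control vector, the calls of Cenpe and Bub3 ended with no filter, with no trend and with the second probe set, and those of Ccnb2 and Bub3 with only the groups compared. Between the lines, Smc4 did not pass without the Suv420h1-GFP array or with its second probe set, and Cdc20 did not pass without any 1 of the null-line arrays. Bright members were far above the dim limit, and Foxm1 was near it. A comparison with groups of 1 or 2 arrays cannot show small differences. In simulated data the fit recovered 36% of 2-fold changes for the null line against control vector.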
